A study of Homo sapiens with 12 samples.

Results

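The 10 genes described here handle copper and other metals in the cell: the metallothioneins MT2A, MT1X, MT1E and MT1F, the metal-sensing transcription factor MTF1, the copper importer SLC31A1 and its relative SLC31A2, the copper chaperone ATOX1, and the copper-pumping ATPases ATP7A and ATP7B. They were picked by gene symbol from the 59498 gene identifiers of a count table of 12 RNA libraries. All 10 were found, and 8 of the 10 passed the filter on low counts that 17947 genes passed in all.

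The libraries came from SKOV-3, an established human epithelial ovarian adenocarcinoma line, in 4 groups of 3. Parental cells were labelled wild type with no drug resistance, and parental knockout cells had lost both KDM5A and KDM5B by label; these genes encode enzymes that demethylate lysine 4 of histone H3. Resistant cells (SKOV-3 CDDP) were labelled wild type and cisplatin resistant, and resistant knockout cells had the same genes knocked out on that background. All groups shared one culture medium. The sources used here do not give how the resistant line was selected, whether cisplatin was present at harvest or whether any line is a single clone. The labels do not say that libraries of a group were separate cultures, so the p-values rest on a spread among libraries that could be technical alone.

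Copper enters cells through SLC31A1, also called CTR1, and is handed by ATOX1 to ATP7A or ATP7B, which pump it into the secretory pathway or out of the cell. Metallothioneins are small cysteine-rich proteins that bind zinc, copper and cadmium. MTF1 responds to zinc and activates metallothionein genes through metal response elements in their promoters. These genes are often studied alongside cisplatin, since platinum also binds to sulfur-containing residues.

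Total counts ran from 15659352 to 19706754 per library. KDM5A averaged 37.3 CPM (read counts scaled to the effective size of each library) in parental and 19.7 CPM in parental knockout libraries, and 37.4 and 14.8 CPM in resistant and resistant knockout libraries (exact permutation test within backgrounds, two-sided p = 0.005, the smallest it can give). KDM5B transcript gave p = 0.445 in the same exact permutation test and does not check the label. All 6 epithelial markers averaged at least 1 CPM in each group, with sums of 321 to 690 CPM in parental and 1447 to 2401 CPM in resistant libraries, while of 5 ovarian carcinoma markers 3, 4, 1 and 4 did so in parental, parental knockout, resistant and resistant knockout cells. Of 7 fibroblast markers 1, 3, 4 and 5 did so, with summed levels of 1.37 to 7.40, 1.70 to 27.8, 347 to 953 and 2525 to 4465 CPM, and none of the 7 was at 0 in a whole group. The sum of 5 leukocyte markers was 31.6 to 95.1 CPM in parental and 10.7 to 14.9 CPM in resistant libraries, and none of 4 endothelial and 3 hepatocyte markers averaged 1 CPM in any group. Resistant library 1 stood apart within its group: the 86 ribosomal protein genes took 2.81% of its counts, against 5.71% and 4.63% in resistant libraries 2 and 3, and genes under 2000 exonic bases took 12.3%, against 15.6% and 14.6%. Parental knockout library 3 also stood apart, with 16.3% mitochondrial counts and 22.5% in genes under 2000 exonic bases, against 5.34% to 10.7% and 11.8% to 18.1% in the other libraries. The part of these marker and library differences in the results below was not tested.

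The promoters of MT2A and MT1X are shown because MTF1 acts through sites of this kind. Each line is the 250 bases before the RefSeq start (GRCh38.p14), 5′ to 3′ on the gene's strand, at chr16:56608334-56608583 (plus) for MT2A and chr16:56682220-56682469 (plus) for MT1X. Capitals mark matches to the metal response element core, searched as TGCACNC or TGCGCNC on both strands.
MT2A: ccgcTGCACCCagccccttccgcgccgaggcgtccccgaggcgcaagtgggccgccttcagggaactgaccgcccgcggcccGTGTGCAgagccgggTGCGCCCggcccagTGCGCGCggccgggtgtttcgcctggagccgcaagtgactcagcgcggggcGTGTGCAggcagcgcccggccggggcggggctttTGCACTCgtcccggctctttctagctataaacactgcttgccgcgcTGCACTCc
MT1X: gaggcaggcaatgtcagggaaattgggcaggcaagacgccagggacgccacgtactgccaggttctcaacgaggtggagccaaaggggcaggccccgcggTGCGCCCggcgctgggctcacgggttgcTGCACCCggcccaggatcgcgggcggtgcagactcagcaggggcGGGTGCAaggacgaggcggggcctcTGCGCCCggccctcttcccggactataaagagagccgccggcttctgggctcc

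MT2A held 7 matches, 5 on its own strand and 2 on the other, and MT1X held 4, of which 3 were on its own strand. Among 35116 RefSeq promoters of this length, 24.8% held at least 1 match, 0.370% at least 4 and 0.0313% at least 7. RefSeq promoters were found for 7 of the 10 members. ATOX1 held 2 overlapping matches on opposite strands, and 1 of the 3 ATP7B starts held 2. The windows of MTF1, ATP7A and SLC31A1 held no such letters, which says nothing about the factor. MT1E, MT1F and SLC31A2 had no entry.

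**Figure D1:**
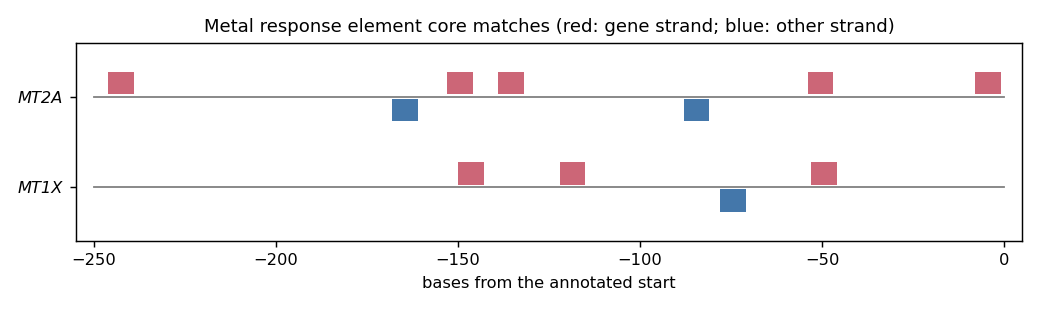
Matches to the metal response element core in the 250 bases before the RefSeq starts of MT2A and MT1X. The x axis is distance from the RefSeq start in bases, with red for the gene's strand and blue for the other. MT2A carries 7 matches and MT1X carries 4.

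Resistant cells held more metallothionein mRNA and less mRNA of MTF1 than parental cells. MT2A (ENSG00000125148, GRCh38 chromosome 16, 56608199 to 56609497, plus strand), the main metallothionein of many human tissues, measured 177, 106 and 130 CPM in parental libraries 1, 2 and 3 and 351, 1003 and 1435 CPM in resistant libraries 1, 2 and 3. The groups did not overlap, although resistant library 1 lay far below the other resistant libraries. The means were 138 ± 36.0 and 930 ± 546 CPM (SD, n = 3), a log2 fold change of 2.76 ± 0.60 (SE), or 6.76-fold (edgeR, adjusted p = 0.00496). In bulk RNA a change in the number of cells expressing a gene and a change in RNA per cell cannot be told apart.

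Among knockout cells MT2A measured 117, 168 and 170 CPM on the parental and 373, 819 and 1977 CPM on the resistant background. Library 1 was again the lowest of the resistant knockout group, above all parental knockout libraries. The log2 fold change was 2.80 ± 0.60 (SE), with an edgeR adjusted p of 0.00539. Without resistant knockout library 3 it was 1.97 (edgeR adjusted p = 0.0186).

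MT1X (ENSG00000187193, chromosome 16, 56682424 to 56684196, plus strand), a metallothionein of the same gene cluster, measured 33.1, 20.7 and 9.84 CPM in parental and 36.6, 95.9 and 98.3 CPM in resistant libraries. The groups were separate, but resistant library 1 lay close to parental library 1. This was a log2 fold change of 1.86 ± 0.50 (SE), with an edgeR adjusted p of 0.0157. Without parental library 2, parental library 3 or resistant library 2 the edgeR adjusted p was 0.0550, 0.0520 and 0.0537. Among knockout cells MT1X measured 32.2, 35.6 and 15.7 CPM against 56.8, 68.3 and 118 CPM, again without overlap. That log2 fold change was 1.54 ± 0.50 (SE, edgeR adjusted p = 0.0396), and leaving out any 1 of the 6 libraries moved the adjusted p to between 0.0555 and 0.125.

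**Figure D2:**
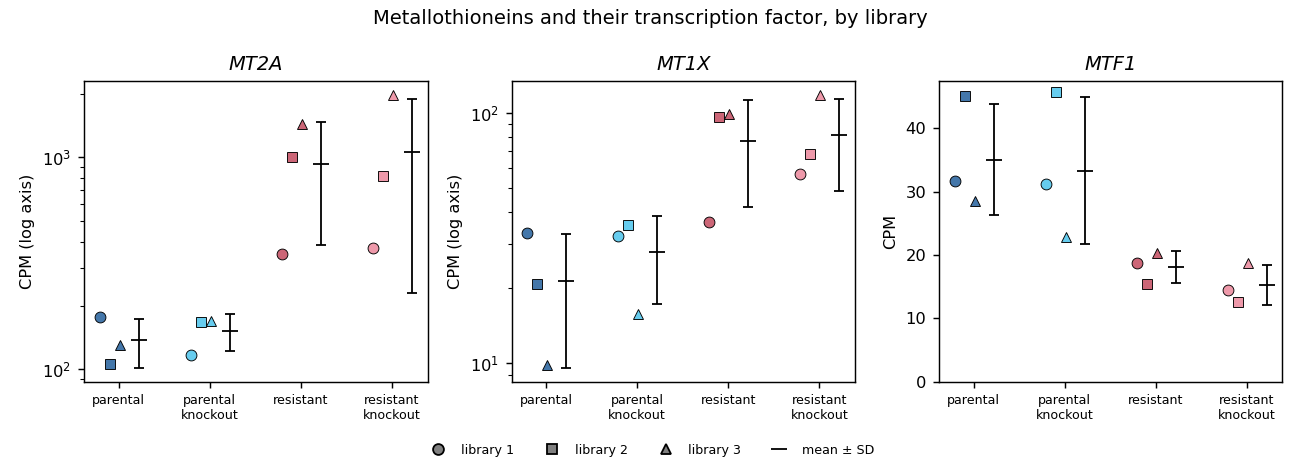
CPM of MT2A and MT1X (log axes) and MTF1 (linear axis) in the 4 groups; circles, squares and triangles are libraries 1, 2 and 3, and bars show the mean and SD. The resistant and resistant knockout libraries lie above the parental groups for MT2A and MT1X and below them for MTF1.

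MTF1 (ENSG00000188786, chromosome 1, 37809567 to 37859620, minus strand) moved the other way. It measured 31.6, 45.0 and 28.5 CPM in parental and 18.7, 15.4 and 20.3 CPM in resistant libraries, with no overlap. Its log2 fold change was -0.95 ± 0.30 (SE), with an edgeR adjusted p of 0.0332. Leaving out any 1 of the 6 libraries other than parental library 3 gave an edgeR adjusted p between 0.0581 and 0.156. Among knockout cells it measured 31.3, 45.8 and 22.9 CPM against 14.4, 12.5 and 18.8 CPM, also without overlap. There the log2 fold change was -1.13 ± 0.30 (SE, edgeR adjusted p = 0.0177). Without parental knockout library 2, resistant knockout library 1 or resistant knockout library 2 that adjusted p was 0.0839, 0.0621 and 0.0741.

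The metallothioneins MT1E (ENSG00000169715, chromosome 16, 56625475 to 56627112) and MT1F (ENSG00000198417, chromosome 16, 56657694 to 56660698) lie between MT2A and MT1X and were almost silent. MT1E had 2 counts in each of resistant libraries 2 and 3, 1 count in resistant knockout library 1 and 0 elsewhere. MT1F had 1 count, in parental library 1. A count of 0 allows up to 0.148 to 0.194 CPM per library (3 counts, counting error only). The 13 other metallothionein genes and pseudogenes on the list did not pass the filter, and the largest total among them was 34 counts over 12 libraries, for MT3.

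Summed over 17 metallothionein genes, the level was 159 ± 44.8 CPM in parental, 180 ± 27.5 in parental knockout, 1008 ± 578 in resistant and 1138 ± 860 in resistant knockout cells (SD, n = 3 each). MT2A supplied 78.5% to 94.4% of these counts and MT1X 5.62% to 21.5%, so that other genes gave between 0 and 15 counts per library. Near-identical copies could exchange reads: 3.02% of the 50-base windows of MT2A and 18.3% of those of MT1X occur in another gene, and at 100 bases 0% and 11.3%, the latter in AC026461.1, which shares MT1X's exonic bases. MT1X values are therefore less certain than those of MT2A. The sources used here do not say how reads mapping to several places were counted.

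Among the transport genes, the exporter ATP7A and the chaperone ATOX1 were higher in resistant cells, while the importer SLC31A1 was not separated from parental cells. SLC31A1 (ENSG00000136868, chromosome 9, 113221562 to 113264492, plus strand) measured 68.9, 86.8 and 85.1 CPM in parental and 99.6, 47.2 and 48.5 CPM in resistant libraries. Resistant library 1 was the highest of the 6 and the other resistant libraries the lowest, so the groups overlapped. The log2 fold change was -0.30 ± 0.29 (SE, edgeR adjusted p = 0.460), and without resistant library 1 it was -0.75 (edgeR adjusted p = 0.0427).

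In knockout cells the SLC31A1 groups separated. They measured 72.1, 85.8 and 71.5 CPM on the parental and 30.6, 37.7 and 36.4 CPM on the resistant background, each resistant knockout library being below each parental knockout library. The log2 fold change was -1.13 ± 0.29 (SE, edgeR adjusted p = 0.0142), and without resistant knockout library 1 the adjusted p was 0.0538.

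SLC31A2 (ENSG00000136867, chromosome 9, 113150942 to 113164137, plus strand), a relative of SLC31A1 linked to vesicular copper, was scarce. It had 4, 1 and 3 counts in parental and 24, 13 and 7 counts in resistant libraries, and 9, 4 and 2 against 9, 4 and 15 counts in the knockout groups. The first pair of groups did not overlap and the second did. The log2 fold changes were 2.41 ± 0.78 (SE, edgeR adjusted p = 0.0358) and 0.90 ± 0.74 (edgeR adjusted p = 0.403). The first rests on few counts, and the gene reached the filter through the libraries where it was higher. It was not tested with only the compared groups or with a minimum of 1 CPM in 3 libraries. Leaving out any 1 library other than resistant library 3 gave an edgeR adjusted p between 0.0586 and 0.146. Exonic bases are shared with FKBP15 on the other strand, which had 12622 counts in all, and the sources used here do not give the strand setting of the counting.

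ATOX1 (ENSG00000177556, chromosome 5, 151742316 to 151772532, minus strand) measured 17.6, 9.99 and 13.6 CPM in parental and 25.2, 42.5 and 35.4 CPM in resistant libraries. Every resistant library was above every parental one. On the log2 scale the fold change was 1.33 ± 0.38 (SE, edgeR adjusted p = 0.0196), and without parental library 2, parental library 3 or resistant library 2 the adjusted p was 0.0858, 0.0535 and 0.0746. The knockout groups measured 10.3, 9.36 and 16.6 CPM against 40.9, 30.3 and 74.7 CPM and were also apart. Their log2 fold change was 2.01 ± 0.38 (SE, edgeR adjusted p = 0.00283), past the threshold in each of 17 alternative settings. ATOX1 shares exonic bases with G3BP1 on the other strand (28387 counts in all).

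ATP7A (ENSG00000165240, chromosome X, 77910656 to 78050395, plus strand), the ATPase mutated in Menkes disease, measured 7.59, 6.08 and 9.94 CPM in parental and 60.1, 22.4 and 14.7 CPM in resistant libraries. The groups did not overlap, and resistant library 1 was far above the rest. The log2 fold change was 2.04 ± 0.50 (SE), or 4.11-fold (edgeR adjusted p = 0.00909). Without resistant library 1 it was 1.23, or 2.35-fold (edgeR adjusted p = 0.04995). In knockout cells ATP7A measured 5.16, 3.61 and 5.06 CPM against 19.2, 18.1 and 8.15 CPM, without overlap. The log2 fold change was 1.71 ± 0.50 (SE, edgeR adjusted p = 0.0243), and the adjusted p lay between 0.0531 and 0.0862 without either of parental knockout libraries 1 and 2 or resistant knockout libraries 1 and 2. Part of its exonic sequence is shared with PGK1 on the same strand (93674 counts in all).

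ATP7B (ENSG00000123191, chromosome 13, 51930436 to 52012125, minus strand), the ATPase mutated in Wilson disease, measured 20.4, 25.8 and 32.8 CPM in parental and 77.8, 29.2 and 31.2 CPM in resistant libraries. Only resistant library 1 lay outside the parental range. The log2 fold changes were 0.81 ± 0.37 (SE, edgeR adjusted p = 0.124) and, among knockout cells, 0.49 ± 0.37 (edgeR adjusted p = 0.366). Without resistant library 1 the first was 0.20. Per kilobase of exonic sequence, the ATP7A to ATP7B ratio was 0.33, 0.21 and 0.27 in parental and 0.68, 0.68 and 0.42 in resistant libraries, so ATP7B was the more abundant of the pair in each of these libraries.

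**Figure D3:**
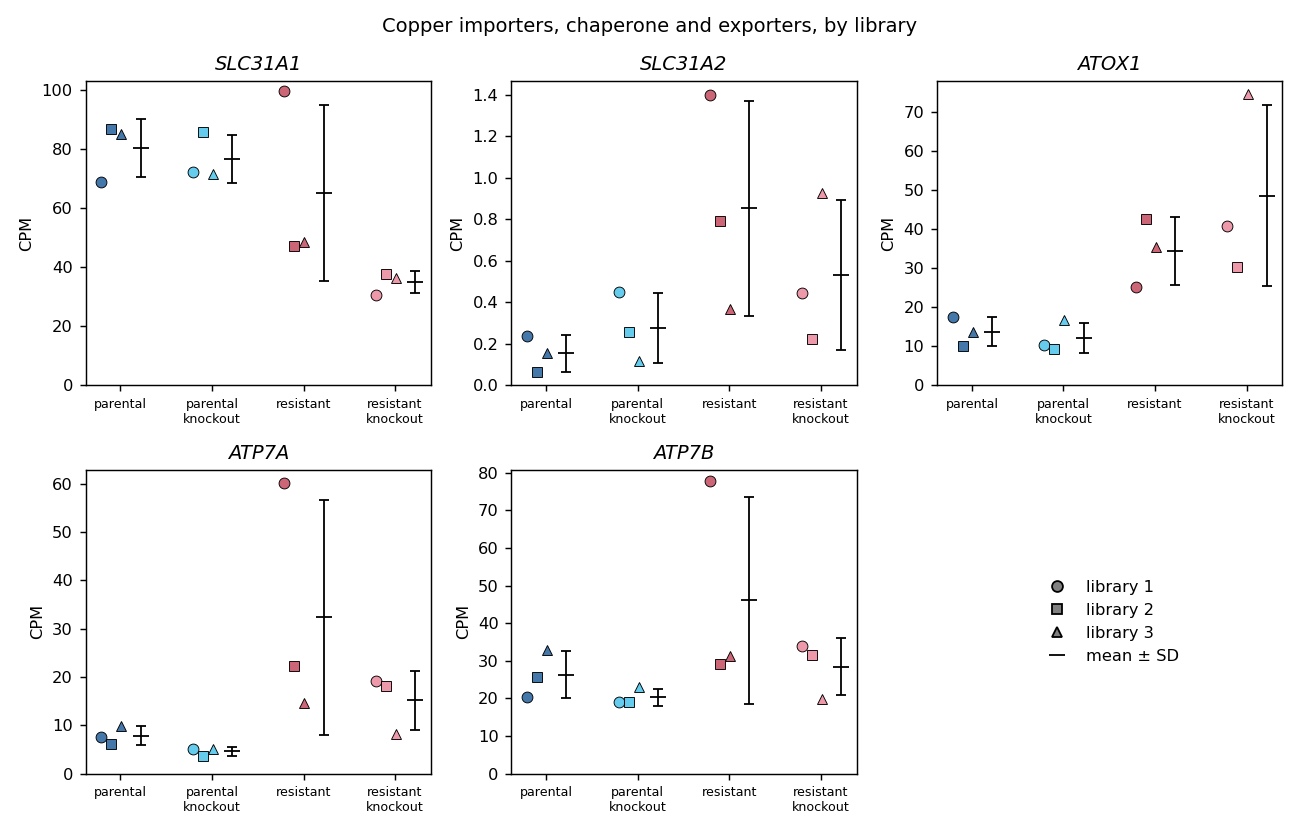
CPM of SLC31A1, SLC31A2, ATOX1, ATP7A and ATP7B in the 4 groups on linear axes; circles, squares and triangles are libraries 1, 2 and 3, and bars show the mean and SD. Resistant library 1 is the highest point for ATP7A (60.1 CPM), ATP7B (77.8 CPM) and SLC31A1 (99.6 CPM).

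On a per-length scale the order of mean levels in parental cells was MT2A at 106 CPM per kilobase, SLC31A1 at 15.7, MT1X at 12.0, MTF1 at 4.37, ATP7B at 2.72, ATOX1 at 2.62, ATP7A at 0.72 and SLC31A2 at 0.06. ATP7B and ATOX1 differed by less than their spread (SD 0.65 and 0.72), and so did SLC31A1 and MT1X (SD 1.92 and 6.57). In resistant cells the order was MT2A at 716, MT1X at 43.4, SLC31A1 at 12.7, ATOX1 at 6.56, ATP7B at 4.76, ATP7A at 2.97, MTF1 at 2.26 and SLC31A2 at 0.34. ATP7A and MTF1 (SD 2.22 and 0.31), ATP7B and ATP7A (SD 2.84 and 2.22), and ATOX1 and ATP7B (SD 1.66 and 2.84) differed by less than their spread. ATP7A was above MTF1 in resistant libraries 1 and 2 and below it in library 3. Lengths are unions of all annotated exons, so a gene with long minor transcripts, such as ATOX1 with 5239 bases, is understated. The lengths of MT2A (1299 bases) and MT1X (1773 bases) equal the whole annotated span of each gene, so their values can be understated too. The order of MT1X and SLC31A1 in parental cells rests on these lengths.

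Of the 8 members tested, 6 passed in resistant against parental cells (5 higher and 1 lower), where 28.0% of all genes passed (15.2% higher and 12.8% lower). The count was 2 without parental library 2, 2 without resistant library 2 and 3 without parental library 3. SLC31A2 is one of the 5 higher members, and where it was left untested (only the compared groups, or 1 CPM in 3 libraries) 5 of 7 passed. Among knockout cells 6 passed (4 higher and 2 lower), where 23.9% of all genes passed (13.6% higher and 10.2% lower). That count was 2 when resistant knockout library 1 was left out, and 3 for parental knockout library 2 and for resistant knockout library 2. The libraries of 6 members did not overlap in resistant against parental cells (5 higher and 1 lower), against 45.5% of all genes (23.7% higher and 21.8% lower). Among knockout cells it was also 6 (4 higher and 2 lower), against 37.2% of all genes (20.3% higher and 16.9% lower). The median log2 fold change of the tested members was 1.59 and 1.22, beside 0.022 and -0.0023 for all genes.

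**Figure D4:**
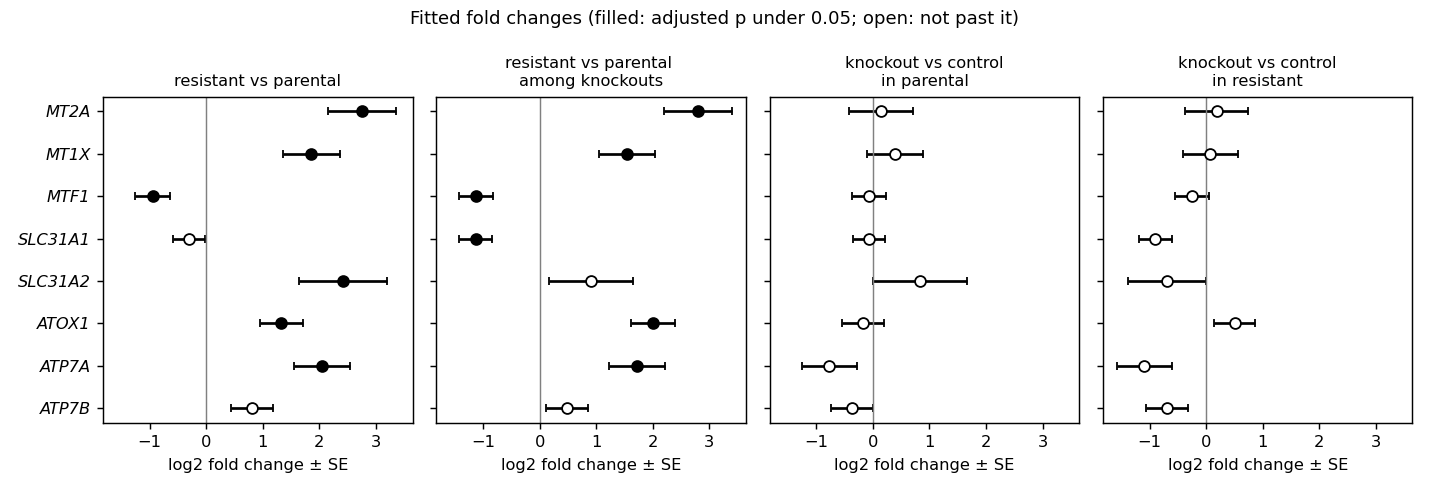
Log2 fold changes with SE of the 8 tested members in 4 comparisons, with filled points for adjusted p under 0.05 (edgeR). Points for the 2 resistance comparisons reach 2.76 and 2.80 for MT2A, and no point of the 2 knockout comparisons is filled.

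In the main fit, which does not pair libraries, the double knockout moved no member past the threshold on either background. On the parental background 0 of 8 members passed, where 0% of all genes did. There were 539 genes with an unadjusted p under 0.05 in edgeR, DESeq2 called 11 genes and limma-voom 1. ATP7A went from 7.59, 6.08 and 9.94 CPM to 5.16, 3.61 and 5.06 CPM, the 1 member whose libraries did not overlap, against 6.59% of all genes (3.20% higher and 3.38% lower). Its log2 fold change was -0.77 ± 0.49 (SE, edgeR adjusted p = 1.00). The replicate numbers paired these libraries. With the number as a block on these 6 libraries alone, 0 of 7 members tested passed, where 7.58% of genes did. ATP7A differed by -0.75 there (edgeR adjusted p = 0.05004, just above the threshold). With blocks for the library numbers of each background, in a fit of all 12 libraries, the edgeR adjusted p of ATP7A was 0.232. In that fit 0.858% of genes passed.

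On the resistant background 0 of 8 members passed, where 0.212% of genes did. SLC31A1 was the 1 member without overlap, against 15.2% of genes (8.02% higher and 7.17% lower): 99.6, 47.2 and 48.5 CPM in resistant and 30.6, 37.7 and 36.4 CPM in resistant knockout libraries. Its log2 fold change was -0.90 ± 0.29 (SE, edgeR adjusted p = 0.383). ATP7A measured 60.1, 22.4 and 14.7 CPM against 19.2, 18.1 and 8.15 CPM, with overlap and a log2 fold change of -1.09 ± 0.48 (SE, edgeR adjusted p = 0.5995). Without resistant library 1 it was -0.30. With blocks for the library numbers of each background, ATP7A passed at -0.94 (edgeR adjusted p = 0.0405) in a fit that called 5.23% of genes, although the numbers did not pair the resistant libraries. These comparisons use the same resistant libraries as the comparison with parental cells.

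The metallothioneins, MTF1 and ATOX1 did not pass with the knockout. MT2A differed by 0.14 ± 0.56 on the parental and 0.18 ± 0.56 on the resistant background (log2, SE), with edgeR adjusted p of 1.00 and 0.975. MT1X differed by 0.39 ± 0.49 and 0.07 ± 0.49, MTF1 by -0.07 ± 0.30 and -0.25 ± 0.30, and ATOX1 by -0.18 ± 0.37 and 0.50 ± 0.37. These standard errors leave room for sizeable changes in either direction. The knockout effect did not differ between backgrounds past the threshold for any of the 8 members, where 0.0279% of genes passed, and 1.53% with blocks for the library numbers of each background. The value with the smallest p was that of SLC31A1, -0.83 ± 0.41 (edgeR adjusted p = 1.00).

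Within the resistant groups, MT2A and ATP7A ran in opposite order over the libraries. Resistant library 1 had the lowest MT2A (351 CPM) and the highest ATP7A (60.1 CPM) of its group, and library 3 had the highest MT2A (1435 CPM) and the lowest ATP7A (14.7 CPM). In resistant knockout cells library 1 had 373 and 19.2 CPM and library 3 had 1977 and 8.15 CPM. In parental cells library 2 had the lowest MT2A (106 CPM) and the lowest ATP7A (6.08 CPM). In parental knockout cells library 1 had 117 and 5.16 CPM and library 3 had 170 and 5.06 CPM. Over all genes, deviations from group means correlated between the resistant groups for library 1 (r = 0.57) and library 3 (0.64). These groups may thus not be separate repeats of the order. After subtraction of group means, Pearson's r of MT2A and ATP7A log2 levels over 12 libraries was -0.83, a description only. The corresponding r was 0.89 for ATP7A with ATP7B and 0.63 for MT2A with MT1X. It was -0.81 for MT2A with ATP7B, -0.77 for MT1X with ATP7A and -0.89 for MT1X with ATP7B, so a negative r was not particular to MT2A with ATP7A. These r were computed for members only. MT2A is a short gene, with 1299 exonic bases, and ATP7A a long one, with 10920, and resistant library 1 had the lowest share of counts in genes under 2000 bases of its group (12.3%). In resistant knockout cells these shares were 14.6%, 15.9% and 13.9% in libraries 1, 2 and 3, the lowest being in the library with the highest MT2A. The part of this in the opposite order was not tested.

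**Figure D5:**
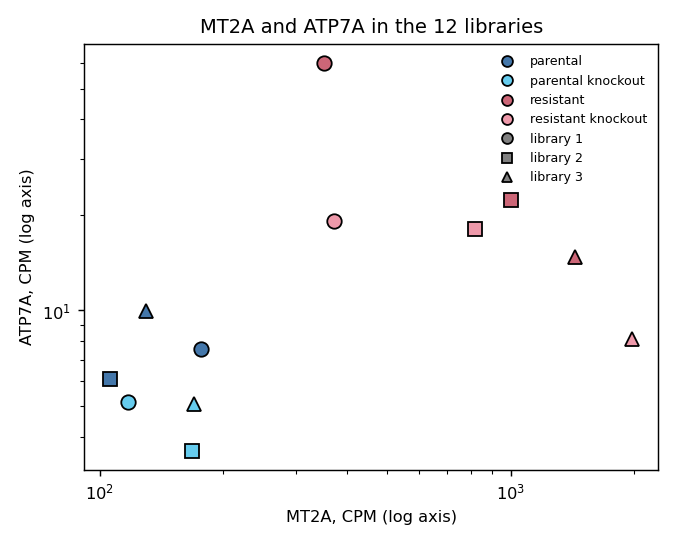
MT2A against ATP7A in CPM, both axes on a log scale, with 1 point per library coloured by group. In each resistant group library 1 lies at low MT2A and high ATP7A and library 3 at high MT2A and low ATP7A.

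The genes whose log2 levels most resembled those of a member over the 12 libraries were ranked by Pearson's r among 11227 genes with a mean of at least 5 CPM. For MT2A they were MOK (0.98), KRTAP2-3 (0.97), MARCHF4 (0.97) and FKBP5 (0.97), and for MT1X they were VSTM1 (0.98), ATIC (0.96), CENPV (0.96) and OGFRL1 (0.95). For ATP7A they included SIDT2, PCYOX1L and RECK (0.98 each). For SLC31A1 they were TFRC, the transferrin receptor (0.98), PPP1R15B (0.98), ATP2B1 (0.97) and MTDH (0.96). The 99th percentile of r was 0.90, 0.86, 0.93 and 0.85 for the 4 members. The libraries in this ranking share the 4 groups.

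Other genes of metal handling were taken from lists. Of 19 further copper-handling genes 18 were tested, and 3 were higher and 2 lower in resistant cells (median -0.03). GLRX, a glutaredoxin, differed by 2.80 ± 0.80 (log2, SE), COMMD1, a partner of ATP7B, by 1.26 ± 0.39 and STEAP3, a metalloreductase, by 1.07 ± 0.27, while COX19, which serves copper delivery to cytochrome oxidase, differed by -2.02 ± 0.41. Among knockout cells 4 were higher and 1 lower (median -0.14), with GLRX at 3.59 ± 0.83, COMMD1 at 1.503 ± 0.39, STEAP3 at 1.45 ± 0.28 and COX19 at -1.96 ± 0.41. In resistant against parental cells GLRX lost its call without parental library 1, parental library 2 or resistant library 2, COMMD1 without parental library 1, parental library 3 or resistant library 2, and STEAP3 without parental library 2. Among knockout cells COMMD1 lost it without parental knockout library 1 or resistant knockout library 3.

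Of 17 copper-dependent enzymes 13 were tested, with 5 higher and 2 lower in resistant cells (median 0.84) and 4 higher and 2 lower among knockout cells (median 0.48). Of all genes 15.2% were higher and 12.8% lower in resistant cells, and 13.6% and 10.2% among knockout cells. The lysyl oxidases LOXL4 and LOXL2, which cross-link collagen, were higher in resistant cells by 6.10 ± 0.62 and 3.30 ± 0.60 (log2, SE), and LOXL4 went from 2.85 ± 1.09 to 195 ± 127 CPM (SD, n = 3). The ferroxidase ceruloplasmin (CP) differed by -4.79 ± 1.28 (log2, SE), with 423 counts in parental and 14 in resistant libraries, and was not past the threshold without parental library 3 or resistant library 2 (edgeR adjusted p = 0.0529 and 0.0576). Extracellular superoxide dismutase (SOD3) had 113 counts in parental and 1 in resistant cells. Its log2 fold change was -6.37 ± 1.15 (SE, edgeR adjusted p = 0.00169), and the ratio of pooled counts 115 (95% counting interval 20.2 to 4581). HEPH, a membrane ferroxidase, had 2 counts in parental knockout and 463 in resistant knockout cells. That log2 fold change was 7.50 ± 1.02 (SE, edgeR adjusted p = 0.000587), and the ratio 225 (61.9 to 1861). These intervals hold counting error only and leave out the spread among libraries. SOD3 and HEPH reached the filter through libraries where they were higher, and HEPH is counted among the higher enzymes in both comparisons. In resistant against parental cells HEPH differed by 5.86 ± 1.49 (log2, SE, edgeR adjusted p = 0.0141). From resistant to resistant knockout cells HEPH differed by 4.29 ± 0.79 and SOD3 by 3.94 ± 1.26 (log2, SE). Neither passed the threshold (edgeR adjusted p = 0.0662 and 0.376). The summed fibroblast markers were also higher in resistant than in parental cells. From resistant to resistant knockout cells that sum was higher again. In the same comparison LOXL4 and LOXL2 differed by -0.25 ± 0.49 and -0.52 ± 0.55 (log2, SE), neither past the threshold. These standard errors leave room for changes in either direction. The part of these markers in the resistance comparisons was not tested.

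Zinc transporters were tested beside MTF1 because it senses zinc. Of 10 exporters 7 were tested, with 1 higher and 1 lower in resistant cells (median -0.03) and 1 higher and 2 lower among knockout cells (median -0.70). SLC30A3 was higher by 4.10 ± 1.02 and 4.09 ± 1.01 (log2, SE), and SLC30A9 differed by -1.27 ± 0.30 and -1.28 ± 0.30. SLC30A1, a zinc exporter known as an MTF1 target, averaged 103 ± 37.8, 67.4 ± 38.6, 47.7 ± 26.6 and 25.8 ± 1.95 CPM in parental, parental knockout, resistant and resistant knockout cells, and passed among knockout cells (-1.38 ± 0.44, edgeR adjusted p = 0.0384). Without parental knockout library 2 that was -0.80 (edgeR adjusted p = 0.198), and without any 1 resistant knockout library the adjusted p lay between 0.0849 and 0.0916. In resistant against parental cells SLC30A1 differed by -1.12 ± 0.44 (log2, SE), not past the threshold (edgeR adjusted p = 0.0751). MT2A and SLC30A1 moved in opposite directions among knockout cells, and the part of MTF1 in this was not tested. Of 14 importers 12 were tested, with 2 higher and 2 lower in resistant cells (median 0.62) and 1 each among knockout cells (median 0.17), SLC39A8 differing by -2.53 ± 0.54 and -2.03 ± 0.53 and SLC39A11 by 1.12 ± 0.37 and 1.42 ± 0.37. In resistant against parental cells SLC39A4 differed by -1.59 ± 0.32 and SLC39A3 by 1.07 ± 0.30. SLC39A11 lost that call without parental library 1 or 2 or resistant library 1 or 2, and SLC39A3 without parental library 1 or 3 or resistant library 1. Lipoylated proteins bind copper in cuproptosis. Of 11 genes for lipoylation or for enzyme complexes with lipoylated subunits, 1 was higher and 2 lower in resistant cells and 0 and 2 among knockout cells. LIAS differed by -2.02 ± 0.47 and -2.20 ± 0.47. PDHA1, from such a complex but not itself lipoylated, differed by -1.37 ± 0.28 and -1.12 ± 0.27. The 1 higher gene, PDHB, differed by 0.95 ± 0.33 and lost its call when any 1 of the 6 libraries was left out. Among knockout cells SLC39A11 lost its call without parental knockout library 1 or resistant knockout library 2, SLC39A8 lost its call without resistant knockout library 1 and PDHA1 without resistant knockout library 2. In resistant cells 5 of 18 copper-handling genes, 2 of 7 zinc exporters, 4 of 12 importers and 3 of 11 lipoylation-list genes passed. These shares lie near the 28.0% of all genes and are no result about these lists. Among knockout cells 23.9% of all genes passed, and no list was tested as a set in any comparison. No gene of these lists passed in either knockout comparison.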

How the data were processed

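Poly(A) RNA libraries were made with a directional kit, per the labels' protocols. The submitters' processing notes name Trim Galore 0.6.10, STAR 2.7.10a, featureCounts 2.0.1 and GRCh38; for the annotation, strand setting and multi-mapping reads, the rule is not given in the sources used here. The deposited table holds whole-number read counts per gene, not normalized by the authors. It has 59542 rows, 44 of them a second row of an identifier. A second copy of the table was equal in 833588 of 833588 cells. Column names were matched to samples through the labels, 2 of them despite a different letter.

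Counts were tested with edgeR 4.0.16 (R 4.3.3): filterByExpr, TMM scaling, a robust quasi-likelihood fit over all 12 libraries with group means, 5 contrasts, and Benjamini-Hochberg adjustment over 17947 genes at 0.05. Standard errors are the log2 fold change's size over the square root of F. Likeness used log2 CPM with a prior count of 2. The scripts were tested on simulated data. DESeq2 1.42.0 and limma 3.58.1 served as alternatives, with other scalings, filters, blocks and left-out libraries. Positions and exonic lengths come from GENCODE 29 (GRCh38), which held 57380 identifiers and 99.95% of the counts. Within-group pairs differed by a chi-square per degree of freedom of 24.1 to 194.7, so no library was a repeat of another.

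Replicate numbers paired the parental and parental knockout libraries, from the data alone (r of deviations 0.66, 0.77 and 0.78), but not the resistant ones (0.57, -0.19 and 0.64).

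The members and lists were chosen with earlier results of these data known. Named were all members, KDM5A and KDM5B, per list and comparison up to 4 genes past the test with the largest change (minimum 1 CPM in the higher group), then the 4 genes most like each of 4 members, of which 1 is not reported here. SLC30A1 was set out in full after its values were seen.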

Additional observations from a re-analysis of the deposited data

How the results depend on the processing

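Of 730 member values under alternative settings, 671 kept direction and side of the threshold, 36 lost significance, 2 gained it and 21 changed sign. All 36 losses fell in the 2 resistance comparisons, since only there had a member passed. In resistant against parental cells the losses were 7 of 17 settings for MTF1, 6 of 15 for SLC31A2, 3 of 16 for MT1X and 3 of 17 for ATOX1. Among knockout cells they were 8 of 16 for MT1X, 5 of 17 for ATP7A, 3 of 17 for MTF1 and 1 of 17 for SLC31A1. MT2A passed in 17 of 17 settings in both resistance comparisons, ATP7A in 17 of 17 in resistant against parental cells and ATOX1 in 17 of 17 among knockout cells. Of the 17 settings for MT2A, 1 took the metallothionein sum in its place. For every member 1 setting was the main fit itself, with a log2 change of at least 1 also required. Leaving out 1 library gave 2 to 5 members past the threshold in each resistance comparison, against 6. With a replicate block within each background 1 member (ATP7A) passed for the knockout in resistant cells, against 0. Other blocked fits changed 1 further member call, MT1X among knockout cells (edgeR adjusted p = 0.0531 with the block over all 12 libraries). MTF1 in resistant against parental cells had an edgeR adjusted p of 0.0715 with all genes of at least 1 count and did not reach a log2 change of 1, and ATP7A among knockout cells had 0.054 in limma-voom. The causes were not tested.

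The sign changes concern differences that did not pass. Leaving out 1 library, the knockout effect on the parental background ranged from -0.48 to 0.055 for ATOX1, -0.014 to 0.38 for MT2A and -0.38 to 0.15 for MTF1, and on the resistant background from -0.65 to 0.63 for MT2A and -0.30 to 0.27 for MT1X. The difference between backgrounds ranged from -0.79 to 0.49 for MT2A, -0.83 to 0.013 for MT1X, -0.40 to 0.13 for MTF1, -0.70 to 0.48 for ATP7A and -0.57 to 0.29 for ATP7B. Without both parental-background libraries numbered 3 the parental knockout effect was 0.015 for MTF1 and 0.030 for SLC31A1. The difference for MT2A was -0.061 in limma-voom, -0.073 with the replicate block within each background and -0.0033 for the metallothionein sum.

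Over all genes, the knockout on the parental background called 0 genes, but 83 with every gene of at least 1 count, 11 in DESeq2 and 154 with the block within each background. On the resistant background it called 38, but 451, 249 and 939 in these settings, and 4 to 17 with a library left out. The difference called 5, but 161, 67 and 274. With the replicate number as a block on the parental-background libraries alone, the knockout on that background called 1206 of 15903 genes. Scaling by library size alone moved the median of all genes among knockout cells to 0.15. For the named genes of the lists, 245 values kept their call and 27 lost it in resistant against parental cells, and 220 and 20 among knockout cells. Low counts limit SLC31A2, MT1E and MT1F.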
